A study of Homo sapiens with 12 samples.

Results

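The VD3 by VPA interaction is the part of the response to both compounds that the responses to each alone do not predict. It was measured in all 12 RNA-seq libraries of enterocytes, the absorptive cells of the gut lining, that had been differentiated from RPChiPS771, a line of human induced pluripotent stem cells. The cultures were kept in M3 medium from day 15 to day 23, the maturation stage, with both compounds (VD3VPA), 1 µM VD3 alone (VD3), 100 µM VPA alone (VPA) or neither (Control), in 3 libraries each. For every gene the interaction was the VD3 effect with VPA present (VD3VPA against VPA) minus the VD3 effect alone (VD3 against Control), on the log2(FPKM + 1) scale. The same number is the VPA effect with VD3 present minus the VPA effect alone. FPKM counts the fragments of a gene per kilobase of its length, corrected for library size. Included were 12561 genes that reached 1 FPKM in 3 or more libraries, of 58735 in the table. Y-linked genes, XIST and TSIX were left out. The included genes were sorted by pattern. The design text names the effect of the compounds on the differentiation of these cells as its question.

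VD3, vitamin D3, acts through its hormone form on the vitamin D receptor, a nuclear receptor that pairs with the retinoid X receptor, binds DNA and recruits coactivators. In the gut it is best known for switching on calcium transport genes and the hormone's own breakdown enzyme. VPA, valproic acid, inhibits histone deacetylases, which remove acetyl marks from histones and work in corepressor complexes. A design with each compound alone, both and neither measures directly whether their effects multiply.

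Depth was 32160289 to 43998467 gene-assigned fragments per library. All 8 enterocyte markers reached 1 FPKM in some library, with a summed level of 840 to 910.2 FPKM in VD3VPA, 793 to 819 FPKM in VD3, 577 to 611 FPKM in VPA and 465 to 508 FPKM in Control. ALPI, LCT and FABP2 were highest in VD3VPA, whereas ANPEP averaged 147 FPKM in VD3VPA, 230.3 FPKM in VD3, 283 FPKM in VPA and 224 FPKM in Control, and VIL1 averaged 99.8 FPKM in VD3VPA, 109.7 FPKM in VD3, 141 FPKM in VPA and 132 FPKM in Control. SI, sucrase-isomaltase, a defining enzyme of mature enterocytes, reached no more than 1.21 FPKM. Of 6 hepatocyte markers 5 reached 1 FPKM, with a summed level of 7637 to 8409.5 FPKM in VD3VPA, 9291 to 10778 FPKM in VD3, 7092 to 8860 FPKM in VPA and 9623 to 10322 FPKM in Control, and the fetal protein gene AFP lay at 21500.5 to 32070 FPKM. Gastric markers summed to 26.7 to 33.1 FPKM in VD3VPA, 46.1 to 59.5 FPKM in VD3, 36.6 to 48.8 FPKM in VPA and 120 to 136 FPKM in Control. Each library pools many cells, so fewer cells of a type and less RNA per cell cannot be told apart. The labels do not state whether a group's libraries are separate cultures, and p-values therefore reflect only how far these libraries spread. Whether each group was handled as 1 lot is not stated either, and a group's treatment and its handling cannot be told apart.

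The response to VD3 mostly kept its direction when VPA was present, whereas most of the strong response to VPA alone was not seen when VD3 was present. Of 472 genes at least 2-fold higher with VD3 alone, 431 (91.3%) were also called higher with VPA present, with a median log2 effect of 1.22 with VPA present and 1.39 alone. Of 332 genes at least 2-fold lower with VD3 alone, 277 (83.4%) were called lower with VPA present, with a median of −0.68 with VPA present and −1.19 alone. Of these 332 genes 110 were still at least 2-fold lower with VPA present, and the interaction was called in 253, with a smaller effect in the presence of VPA in 205. Of 267 genes at least 2-fold higher with VPA alone, 105 (39.3%) were called higher with VD3 present, 31 were called lower, and the median effect was 0.16 with VD3 present and 1.255 alone. Of 96 genes at least 2-fold lower with VPA alone, 31 (32.3%) were called lower with VD3 present, with a median of −0.21 with VD3 present and −1.18 alone. The paired effects share no library. A called gene had an adjusted p under 0.05 in limma's moderated test, with Benjamini-Hochberg adjustment over all tested genes.

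Genes selected for a large effect in 1 setting tend to show a smaller one in another, so the same counts were made from the other side. VD3 with VPA present gave 510 genes at least 2-fold higher, of which 93.9% were called higher with VD3 alone, and 461 at least 2-fold lower, of which 79.0% were called lower. VPA with VD3 present gave only 67 genes at least 2-fold higher, of which 55.2% were called higher with VPA alone, and 50 lower, of which 54.0% were called lower. At a floor of 0.32 on the log2 scale (a 25% rise), called VD3 effects had the same direction in both settings in 2721 genes and opposite directions in 185. Called VPA effects had the same direction in 624 genes and opposite directions in 254.

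**Figure D1:**
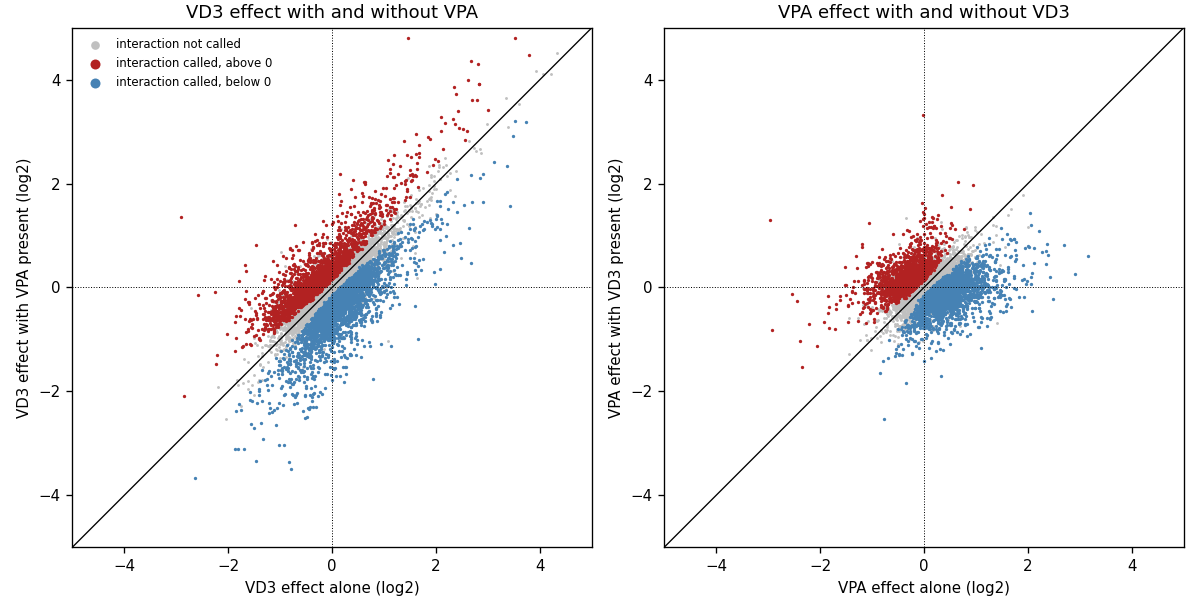
Each point is 1 gene, with the log2 effect of a compound in the presence of the other compound on the vertical axis and its effect alone on the horizontal axis (left, VD3; right, VPA); the solid line marks equal effects and colour marks the called interactions. The VD3 effects follow the line, while the VPA effects spread along the horizontal axis and stay near 0 on the vertical one; 8 genes lie beyond the axis limit of 5.

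The interaction was called in 5566 genes, 44.3% of those tested. It was positive in 2390 genes (19.0%) and negative in 3176 (25.3%), so 42.9% of the called genes were positive. This split depended on the scaling: the share was 55.8% with equal FPKM sums per library and 51.8% after quantile normalization, and the median over all genes was −0.01 as deposited and 0.05 with equal sums. At least 2-fold interactions were called in 462 genes (3.68%), 154 positive and 308 negative. At the limit of calling, MAP7D1 lay just inside at −0.23 (limma adjusted p = 0.0499777) and SNX6 just outside at −0.15 (adjusted p = 0.0500245).

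Patterns were read from the called changes of at least 0.32 (log2) against Control. Such changes were found in 38.1% of genes with VD3, 27.9% with VPA and 40.6% with VD3VPA, and VD3VPA differed from VPA in 39.1% and from VD3 in 15.5%. A called interaction was termed cancelled where a single effect was absent in the combination, and saturated where both single effects had 1 direction and the combination fell short of their product. It was termed blunted where only 1 compound acted alone and the combination kept that direction but fell short of the product. Reversed genes went the other way in the combination, and opposed genes had single effects of opposite directions. Synergistic genes changed more in the combination than the single effects predict, either beyond a single effect or in the combination only. Cancelled genes were the most frequent with 1460, followed by 978 saturated, 546 blunted, 345 opposed and 128 reversed genes. A further 350 were synergistic beyond a single effect and 399 synergistic in the combination only, while 1360 called interactions met no pattern at this floor. Additive genes, which had both single effects, no called interaction and a 95% interval within 1.5-fold either way, numbered 214 with single effects in the same direction and 112 in opposite directions. The intervals of another 122 genes were too wide, and 6547 genes had no pattern. These counts are descriptions of all tested genes, and no test of 1 pattern against another was made.

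**Figure D2:**
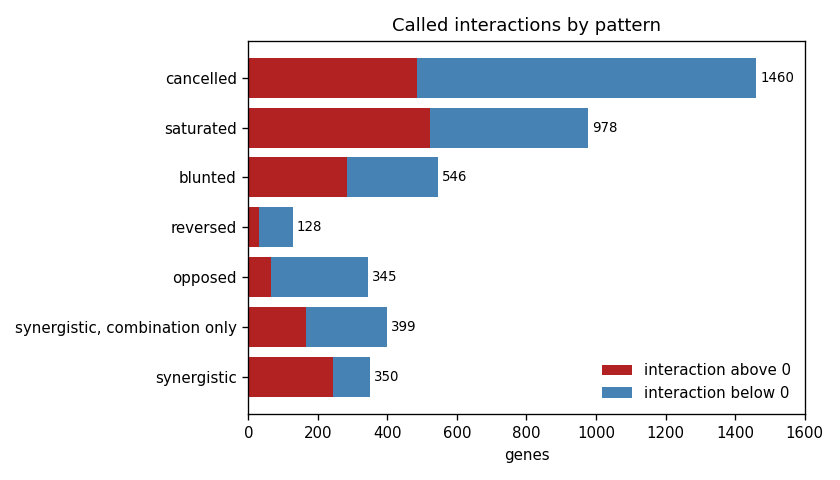
Bars give the number of genes with a called interaction in each pattern, split by the sign of the interaction. Cancelled (1460) and saturated (978) genes outnumber both synergistic classes (350 and 399), and cancelled, reversed and opposed genes lie mostly below 0.

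Cancelled genes were mainly genes that changed with 1 compound alone and lay near Control with both. A total of 603 of the 1460 rose with VPA only, 246 rose with VD3 only, 237 fell with VPA only and 168 fell with VD3 only. Both single effects were rises in 127 and falls in 79. APOB, the structural protein of chylomicrons (chromosome 2, 21001429 to 21044073), lay at 426, 441 and 419.7 FPKM in VD3VPA, 492, 479 and 459 FPKM in VD3, 927, 842 and 863 FPKM in VPA and 422, 456 and 434 FPKM in Control libraries. The 3 VPA libraries stood above all others, and the VPA effect was −0.15 with VD3 present and 1.002 alone, an interaction of −1.15 (SE 0.0738, limma adjusted p = 2.11e-06). RETREG1, a receptor for the turnover of endoplasmic reticulum (chromosome 5, 16473038 to 16617058), had 7.14, 6.82 and 7.27 FPKM in VD3VPA, 9.67, 10.4 and 8.44 FPKM in VD3, 26.7, 27.3 and 28.1 FPKM in VPA and 7.30, 8.71 and 7.82 FPKM in Control libraries, with an interaction of −2.04 (SE 0.1003, limma adjusted p = 6.27e-07). Again only the VPA libraries were high, and the other 9 lay between 6.82 and 10.4 FPKM.

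In other cancelled genes both compounds moved the gene alone and the pair did not. C3, the central complement component (chromosome 19, 6677704 to 6730562), had 3.49, 3.57 and 3.28 FPKM in VD3VPA, 10.7, 9.71 and 6.94 FPKM in VD3, 9.23, 9.38 and 7.63 FPKM in VPA and 3.32, 3.53 and 3.71 FPKM in Control libraries. VD3 and VPA libraries overlapped each other and lay above those of VD3VPA and Control, and the interaction was −2.27 (SE 0.169, limma adjusted p = 4.37e-06). SLC6A11, a carrier of the transmitter GABA (chromosome 3, 10816200 to 10940733), showed the mirror image with 5.12, 5.88 and 5.89 FPKM in VD3VPA, 1.40, 1.56 and 2.62 FPKM in VD3, 3.996, 2.34 and 2.12 FPKM in VPA and 7.76, 6.07 and 6.67 FPKM in Control libraries. Its VD3 and VPA libraries were all below those of VD3VPA and Control, with an interaction of 2.30 (SE 0.256, limma adjusted p = 4.62e-05). ABCG2, a drug efflux pump of the brush border, averaged 87.2 ± 2.16 FPKM in VD3VPA, 123 ± 13.2 FPKM in VD3, 181 ± 13.9 FPKM in VPA and 74.5 ± 5.11 FPKM in Control (SD, n = 3 each), and its interaction was −1.75 (SE 0.112, limma adjusted p = 2.11e-06). ELFN1, better known from synapses, belonged instead to the cancelled genes that rose with VPA only. It averaged 2.10 ± 0.0896 FPKM in VD3VPA, 1.98 ± 0.378 FPKM in VD3, 14.2 ± 1.69 FPKM in VPA and 2.68 ± 0.466 FPKM in Control, an interaction of −1.99. BOLA2B had the largest positive value of the named genes, 4.27 (limma adjusted p = 0.0462), but a near-identical copy exists and the value rests on single libraries. Its levels were 0.882, 0.395 and 25.8 FPKM in VD3VPA, 0.888, 0.617 and 0.533 FPKM in VD3, 0.658, 0.670 and 0.498 FPKM in VPA and 30.0, 29.8 and 1.10 FPKM in Control libraries, so it is uncertain. The call held only without Control replicate 3 or VD3VPA replicate 1 or 2, and the interaction ranged over 2.93 to 5.57 when a library was left out.

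Reversed genes rose with VPA alone and ended below Control with both compounds in 85 of 128 cases, and 27 fell with VPA alone and ended above. CTSL, the lysosomal protease cathepsin L (chromosome 9, 87725519 to 87731393), had 70.5, 67.6 and 63.8 FPKM in VD3VPA, 106, 103 and 91.2 FPKM in VD3, 203, 236 and 225 FPKM in VPA and 96.3, 93.8 and 80.3 FPKM in Control libraries. The VPA libraries were highest and the VD3VPA libraries lowest, with no overlap. The VPA effect on CTSL was −0.57 with VD3 present and 1.29 alone, and the interaction was −1.86 (SE 0.118, limma adjusted p = 2.11e-06). SLC26A3, the chloride and bicarbonate exchanger of the gut surface (chromosome 7, 107765467 to 107803225), had 15.2, 15.4 and 15.0 FPKM in VD3VPA, 25.5, 32.0 and 22.7 FPKM in VD3, 74.6, 62.0 and 68.6 FPKM in VPA and 38.5, 31.7 and 27.4 FPKM in Control libraries. Its VPA libraries lay above all others and its VD3VPA libraries below all others, an interaction of −1.82 (SE 0.183, limma adjusted p = 2.55e-05). The methionine salvage enzyme ADI1 (−1.85), the guanine deaminase GDA (−1.79) and DUSP6, a phosphatase that inactivates ERK kinases (−1.77), likewise had the highest mean in VPA and the lowest in VD3VPA.

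Opposed genes mostly fell with VD3, rose with VPA and fell with both: 215 of 345 had this order, and 58 had its mirror image. In the 215, the median VPA effect was −0.06 with VD3 present and 0.67 alone, and the median VD3 effect was −1.50 with VPA present and −0.63 alone. LGMN, the lysosomal protease legumain (chromosome 14, 92703807 to 92748702), had 24.0, 24.5 and 25.0 FPKM in VD3VPA, 34.4, 36.1 and 30.8 FPKM in VD3, 133, 144 and 153 FPKM in VPA and 53.1, 45.2 and 44.7 FPKM in Control libraries. The 4 groups did not overlap, and the combination lay lowest although VPA alone lay highest. The VPA effect on LGMN was −0.44 with VD3 present and 1.57 alone, and its interaction was −2.01 (SE 0.109, limma adjusted p = 1.12e-06). SLC43A2, an amino acid carrier (chromosome 17, 1569267 to 1628886), had 0.573, 0.577 and 0.612 FPKM in VD3VPA, 1.26, 1.30 and 0.952 FPKM in VD3, 16.9, 14.0 and 15.0 FPKM in VPA and 3.49, 2.62 and 2.47 FPKM in Control libraries, an interaction of −2.53 (SE 0.141, limma adjusted p = 1.23e-06) and the same order of groups. PLIN2, a coat protein of lipid droplets, averaged 5.83 ± 0.345 FPKM in VD3VPA, 5.10 ± 0.943 FPKM in VD3, 41.6 ± 1.56 FPKM in VPA and 11.9 ± 1.49 FPKM in Control (SD, n = 3 each). SLC40A1, the iron exporter ferroportin, averaged 12.9 ± 0.685 FPKM in VD3VPA, 14.8 ± 0.680 FPKM in VD3, 68.2 ± 4.15 FPKM in VPA and 32.2 ± 2.22 FPKM in Control, and the interactions were −1.55 for PLIN2 and −1.25 for SLC40A1. PTH1R, the parathyroid hormone receptor, had the largest negative value of all named genes, −2.70 (SE 0.296, limma adjusted p = 4.24e-05), with 3.28 ± 0.0990 FPKM in VD3VPA, 4.14 ± 1.29 FPKM in VD3, 47.4 ± 3.63 FPKM in VPA and 7.97 ± 2.49 FPKM in Control. Its span overlaps that of MYL3, so its level is uncertain. NPL, which splits sialic acid, and the membrane scaffold gene MPP1 also belonged here, with interactions of −2.11 and −2.01. In the mirror image, the fibrinogen chain FGG averaged 1149 ± 119.9 FPKM in VD3VPA, 1283 ± 80.3 FPKM in VD3, 56.9 ± 17.2 FPKM in VPA and 201 ± 17.7 FPKM in Control, an interaction of 1.69 (SE 0.261, limma adjusted p = 3.95e-04). FGB, another fibrinogen chain, averaged 2765 ± 224 FPKM in VD3VPA, 3371 ± 194 FPKM in VD3, 265 ± 61.5 FPKM in VPA and 633 ± 76.6 FPKM in Control, an interaction of 0.98.

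Blunted genes kept the direction of an effect that 1 compound had alone: a fall with VD3 in 242, a rise with VD3 in 162, a rise with VPA in 100 and a fall with VPA in 42. CREB3L3, a transcription factor of lipid and fasting genes in liver and gut (chromosome 19, 4153601 to 4173054), had 37.5, 33.4 and 31.7 FPKM in VD3VPA, 20.1, 21.1 and 17.4 FPKM in VD3, 90.7, 86.8 and 80.5 FPKM in VPA and 21.4, 20.6 and 19.5 FPKM in Control libraries. VPA libraries were highest, VD3VPA libraries came next, and VD3 and Control libraries overlapped. The VPA effect on CREB3L3 was 0.78 with VD3 present and 2.02 alone, an interaction of −1.24 (SE 0.111, limma adjusted p = 1.19e-05). The membrane mucin MUC3A averaged 4.73 ± 0.329 FPKM in VD3VPA, 3.76 ± 0.761 FPKM in VD3, 17.8 ± 1.71 FPKM in VPA and 3.47 ± 0.351 FPKM in Control (SD, n = 3 each), an interaction of −1.80. MSX1, a homeobox gene of BMP signalling, averaged 6.27 ± 0.919 FPKM in VD3VPA, 3.69 ± 0.134 FPKM in VD3, 23.8 ± 0.150 FPKM in VPA and 3.78 ± 0.925 FPKM in Control, an interaction of −1.77. PLG, the plasminogen gene, had −1.64, and NKD2, a Wnt inhibitor, had −1.48. ODC1, the rate-limiting enzyme of polyamine synthesis, ran the other way with 293 ± 17.4 FPKM in VD3VPA, 479 ± 24.1 FPKM in VD3, 92.5 ± 14.9 FPKM in VPA and 431 ± 79.2 FPKM in Control, an interaction of 1.5001 (SE 0.183, limma adjusted p = 8.43e-05).

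Saturated genes reached with both compounds about the level that 1 of them gave. Of the 978, 523 were lower and 455 higher than Control in all 3 treated groups, and the combination lay within 0.32 (log2) of the larger single effect in 832. APOA4, an apolipoprotein of chylomicrons (chromosome 11, 116820700 to 116823306), had 5743, 5016 and 4700.2 FPKM in VD3VPA, 4797, 5469.6 and 3348 FPKM in VD3, 3457, 4205 and 3563 FPKM in VPA and 798, 872 and 488 FPKM in Control libraries. The VD3 libraries overlapped those of VD3VPA and of VPA, and all treated libraries lay above Control. The product of the single effects would be 23599 FPKM, and the interaction was −2.21 (SE 0.307, limma adjusted p = 2.06e-04). AKR1B10, a reductase of aldehydes and retinoids (chromosome 7, 134527592 to 134541408), had 5.09, 4.57 and 4.10 FPKM in VD3VPA, 5.99, 4.60 and 6.73 FPKM in VD3, 5.42, 5.63 and 3.83 FPKM in VPA and 32.7, 24.3 and 37.8 FPKM in Control libraries. Its Control libraries lay above all others, and the treated groups overlapped, an interaction of 2.17 (SE 0.240, limma adjusted p = 4.37e-05). The secretory cell disulfide isomerase AGR2 averaged 25.5 ± 1.19 FPKM in VD3VPA, 45.8 ± 5.41 FPKM in VD3, 18.6 ± 1.09 FPKM in VPA and 153 ± 49.99 FPKM in Control (SD, n = 3 each), an interaction of 2.12. NPW, a neuropeptide gene, averaged 1.06 ± 0.243 FPKM in VD3VPA, 1.26 ± 0.548 FPKM in VD3, 1.28 ± 0.282 FPKM in VPA and 12.8 ± 5.03 FPKM in Control, an interaction of 2.43. In 40 of the 978 saturated genes the single effects added on the log2(FPKM + 1) scale would give a level below 0 FPKM. The floor at 0 FPKM makes the interaction positive there but does not fix its size. A mean of at least 1 FPKM in Control only was found in 52 saturated genes. NPW and SI are among the 40. SI averaged 0.105 ± 0.0328 FPKM in VD3VPA, 0.231 ± 0.0830 FPKM in VD3, 0.114 ± 0.0260 FPKM in VPA and 1.15 ± 0.0840 FPKM in Control, so it passed the filter through Control alone.

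In ALPL and HSD3B1 the sign of the VD3 effect depended on VPA. ALPL, the tissue-nonspecific alkaline phosphatase (chromosome 1, 21509372 to 21578412), had 3.71, 4.45 and 3.91 FPKM in VD3VPA, 3.67, 3.63 and 2.42 FPKM in VD3, 8.27, 8.90 and 9.86 FPKM in VPA and 0.464, 0.344 and 0.210 FPKM in Control libraries. VPA alone stood highest, VD3VPA and VD3 came close to each other, and Control was lowest. The VD3 effect on ALPL was −0.99 with VPA present and 1.65 alone, an interaction of −2.65 (SE 0.168, limma adjusted p = 2.11e-06). HSD3B1, a steroid hormone enzyme (chromosome 1, 119507198 to 119515054), had 8.79, 8.49 and 7.17 FPKM in VD3VPA, 5.91, 4.96 and 4.27 FPKM in VD3, 30.8, 29.2 and 29.5 FPKM in VPA and 3.07, 2.26 and 2.13 FPKM in Control libraries. The VD3 effect on HSD3B1 was −1.76 with VPA present and 0.79 alone, an interaction of −2.55 (SE 0.160, limma adjusted p = 2.11e-06), and its VPA libraries lay above all others.

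Some patterns amount to 1 group standing apart from the other 3. In 492 of the 978 saturated genes the 3 treated groups lay within 0.32 (log2) of each other and only Control differed. In 465 of the 1460 cancelled genes only VPA differed, and in 127 only VD3 did. Of the 466 called genes in which VPA stood apart, VPA was higher in 376 and lower in 90. Of the 495 in which Control stood apart, Control was higher in 281 and lower in 214. Whether something other than the compounds set Control or VPA apart was not tested. Gastric marker sums and mitochondrial RNA moved with this: mitochondrially encoded genes summed to 40755 to 42502 FPKM in VD3VPA, 36189 to 38833 FPKM in VD3, 36867 to 41492 FPKM in VPA and 51436 to 54886 FPKM in Control. Their part in the saturated pattern was not tested.

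Synergistic genes were mostly genes that VD3 raised and VPA alone did not: 224 of 350. Their median VPA effect was 0.47 with VD3 present and −0.04 alone. PRG4, the lubricant proteoglycan lubricin (chromosome 1, 186296279 to 186314562), had 32.7, 27.6 and 24.8 FPKM in VD3VPA, 1.73, 1.95 and 2.16 FPKM in VD3, 0.0501, 0.0129 and 0.0617 FPKM in VPA and 0.0824, 0.0377 and 0.0650 FPKM in Control libraries. Each VD3VPA library lay above every VD3 library, and VPA and Control libraries were close to 0. The VPA effect on PRG4 was 3.31 with VD3 present and −0.03 alone, an interaction of 3.34 (SE 0.122, limma adjusted p = 1.23e-07). The span of PRG4 overlaps that of TPR, so its level is uncertain. SLPI, a secreted protease inhibitor of epithelia (chromosome 20, 45252239 to 45254564), had 74.1, 59.2 and 55.7 FPKM in VD3VPA, 21.7, 21.9 and 22.6 FPKM in VD3, 2.07, 2.25 and 2.42 FPKM in VPA and 2.64, 2.30 and 1.93 FPKM in Control libraries, an interaction of 1.48 (SE 0.142, limma adjusted p = 1.91e-05). G0S2, an inhibitor of the fat-splitting enzyme ATGL (chromosome 1, 209675420 to 209676388), had 454, 443 and 431 FPKM in VD3VPA, 169, 143 and 144 FPKM in VD3, 33.2, 34.1 and 22.5 FPKM in VPA and 36.0, 30.2 and 22.2 FPKM in Control libraries. VD3VPA libraries of both genes lay above those of VD3, and VPA overlapped Control. The product of the single effects would give 21.7 FPKM for SLPI and 154 FPKM for G0S2, against observed means of 63.0 ± 9.77 and 442 ± 11.6 FPKM in VD3VPA. The interaction of G0S2 was 1.51 (SE 0.243, limma adjusted p = 5.11e-04).

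CYP3A4, the main drug-oxidizing enzyme of the gut and a target of the vitamin D receptor (chromosome 7, 99756960 to 99784265), had 64.9, 61.4 and 58.4 FPKM in VD3VPA, 22.9, 22.3 and 25.5 FPKM in VD3, 0.197, 0.156 and 0.0721 FPKM in VPA and 0.0472, 0.0202 and 0.0149 FPKM in Control libraries. VD3VPA lay above VD3 in every library, with an interaction of 1.199 (SE 0.0853, limma adjusted p = 3.54e-06). VPA and Control lay near 0, where the added 1 FPKM sets the size of the VPA effect alone. With a pseudocount of 0.1 the interaction was 0.49 and not called (adjusted p = 0.118), and on recovered fragments with voom it was −0.87, so CYP3A4 shows a larger level with both compounds but no stable sign of interaction. CLDN2, the pore-forming claudin of leaky epithelia, averaged 82.0 ± 2.06 FPKM in VD3VPA, 47.9 ± 3.60 FPKM in VD3, 2.82 ± 1.15 FPKM in VPA and 2.57 ± 0.693 FPKM in Control (SD, n = 3 each), an interaction of 0.69 (SE 0.249, limma adjusted p = 0.0416). Leaving out a library gave CLDN2 0.54 to 0.92, and the call held only without Control replicate 2, VD3 replicate 3 or VPA replicate 1. In the other direction, UGT2A3, a glucuronosyltransferase, averaged 7.75 ± 0.128 FPKM in VD3VPA, 15.4 ± 2.31 FPKM in VD3, 28.6 ± 1.40 FPKM in VPA and 27.9 ± 2.08 FPKM in Control, an interaction of −0.93.

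The start regions of PRG4, CYP3A4 and HSD3B1 are shown because VD3 alone raised all 3 genes, while with VPA present VD3 raised PRG4 and CYP3A4 and lowered HSD3B1. The sequences run from 250 bases before to 50 bases after each start, from RefSeq on GRCh38.p14, 5′ to 3′ on the gene's strand. Capitals mark letters of nuclear receptor half-sites, searched on both strands: AGGTCA, the variant AGTTCA and the further variant GGTTCA, which can overlap. PRG4 is chr1:186296029-186296328 on the plus strand, CYP3A4 is chr7:99784135-99784434 on the minus strand, and HSD3B1 is chr1:119506953-119507252 on the plus strand.
PRG4: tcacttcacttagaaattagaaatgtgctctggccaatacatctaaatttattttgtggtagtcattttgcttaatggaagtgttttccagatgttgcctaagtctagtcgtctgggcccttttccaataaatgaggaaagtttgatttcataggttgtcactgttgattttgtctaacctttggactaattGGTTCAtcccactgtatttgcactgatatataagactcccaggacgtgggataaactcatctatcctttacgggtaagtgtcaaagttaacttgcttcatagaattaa
CYP3A4: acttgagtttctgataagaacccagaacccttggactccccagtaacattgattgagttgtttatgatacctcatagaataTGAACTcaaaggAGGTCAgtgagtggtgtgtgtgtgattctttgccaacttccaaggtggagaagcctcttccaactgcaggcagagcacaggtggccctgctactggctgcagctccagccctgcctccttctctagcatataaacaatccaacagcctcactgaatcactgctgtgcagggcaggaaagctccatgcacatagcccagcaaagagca
HSD3B1: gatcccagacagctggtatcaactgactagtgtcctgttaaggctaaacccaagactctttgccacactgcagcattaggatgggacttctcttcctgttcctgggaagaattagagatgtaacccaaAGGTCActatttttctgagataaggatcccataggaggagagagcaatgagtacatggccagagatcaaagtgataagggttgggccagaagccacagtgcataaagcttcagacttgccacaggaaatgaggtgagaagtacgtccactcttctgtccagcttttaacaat
AGGTCA is in 13.8% of 35116 windows of this kind, AGTTCA in 10.4%, GGTTCA in 8.62% and any of the 3 in 28.9%. The window of CYP3A4 holds 2 of them, on opposite strands, and those of PRG4 and HSD3B1 hold 1 each. A match says only that the letters are there.

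A further 399 genes changed in the combination only, 232 down and 167 up. CDC42EP5, a binding partner of the GTPase CDC42 (chromosome 19, 54465026 to 54473264), had 9.40, 9.16 and 8.07 FPKM in VD3VPA, 1.96, 2.86 and 1.81 FPKM in VD3, 1.96, 1.92 and 1.60 FPKM in VPA and 1.35, 1.54 and 3.09 FPKM in Control libraries, an interaction of 1.67 (SE 0.256, limma adjusted p = 3.76e-04). Its VD3VPA libraries lay above all others, which overlapped. MCM6, a subunit of the replication helicase, averaged 10.8 ± 0.495 FPKM in VD3VPA, 5.04 ± 0.329 FPKM in VD3, 4.81 ± 0.607 FPKM in VPA and 5.90 ± 0.895 FPKM in Control (SD, n = 3 each), an interaction of 1.22. HK2, a hexokinase that starts glycolysis, was lower in VD3VPA only, with 9.22 ± 0.452 FPKM in VD3VPA, 17.6 ± 0.475 FPKM in VD3, 17.9 ± 0.862 FPKM in VPA and 16.2 ± 1.09 FPKM in Control, an interaction of −1.003 (SE 0.0777, limma adjusted p = 5.49e-06). FER1L6 averaged 2.56 ± 0.392 FPKM in VD3VPA, 7.25 ± 1.08 FPKM in VD3, 6.54 ± 0.764 FPKM in VPA and 5.13 ± 2.33 FPKM in Control, an interaction of −1.56, and 1 Control library at 7.82 FPKM lay far from the other Control libraries at 3.70 and 3.88 FPKM.

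**Figure D3:**
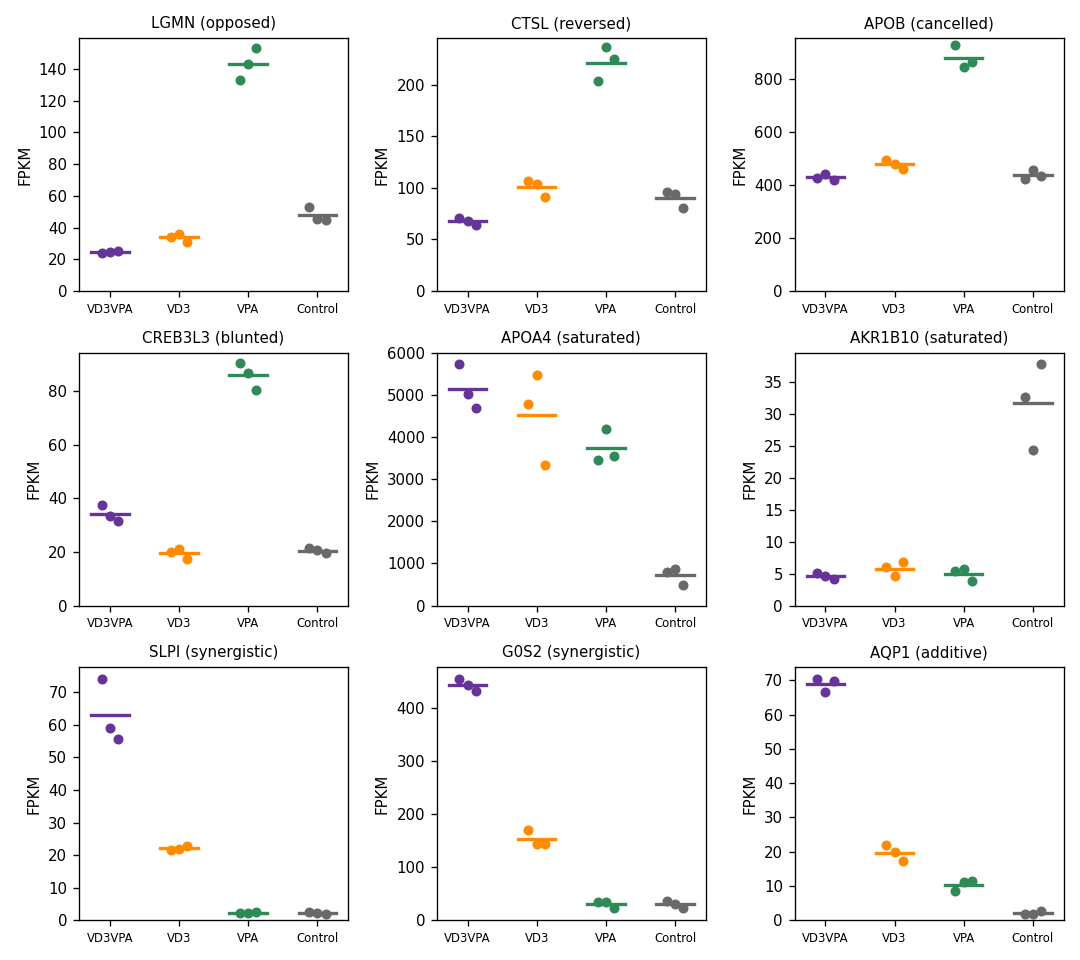
Points give FPKM in each library (3 per group) and lines the group means, for 9 genes named with their pattern, with groups in the order VD3VPA, VD3, VPA and Control and axes from 0. LGMN, CTSL, APOB and CREB3L3 are highest with VPA alone, CREB3L3 with both compounds stays above Control, APOA4 and AKR1B10 differ in Control, and SLPI, G0S2 and AQP1 are highest with both.

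Additive genes were those with both single effects and an interaction neither called nor beyond the 1.5-fold bound on the log2(FPKM + 1) scale. In plain FPKM the combination could still fall short of the product of the single effects. For RARRES2 the product would be 33.8 FPKM, against an observed mean of 19.4 FPKM in VD3VPA. AQP1, a water channel (chromosome 7, 30911694 to 30925516), had 70.3, 66.4 and 69.9 FPKM in VD3VPA, 21.8, 19.7 and 17.2 FPKM in VD3, 8.54, 11.2 and 11.4 FPKM in VPA and 1.78, 1.76 and 2.55 FPKM in Control libraries. The groups did not overlap, and the VPA effect was 1.77 with VD3 present and 1.91 alone, an interaction of −0.14 (95% interval −0.51 to 0.24, limma adjusted p = 0.542). The chemokine gene RARRES2 averaged 19.4 ± 0.669 FPKM in VD3VPA, 6.18 ± 0.819 FPKM in VD3, 5.29 ± 0.469 FPKM in VPA and 0.968 ± 0.250 FPKM in Control (SD, n = 3 each), an interaction of −0.17 (95% interval −0.47 to 0.14, limma adjusted p = 0.354). SLC22A31 and the kininogen gene KNG1 had interactions of −0.21 and −0.27. These 4 genes are low in Control, and with voom on recovered fragments their interactions were called negative, at −0.49 for AQP1, −0.78 for RARRES2, −0.55 for SLC22A31 and −0.40 for KNG1. LCT, the lactase of the brush border, averaged 152 ± 5.998 FPKM in VD3VPA, 93.3 ± 3.30 FPKM in VD3, 7.87 ± 1.13 FPKM in VPA and 4.64 ± 0.579 FPKM in Control, an interaction of 0.05 (95% interval −0.24 to 0.33, limma adjusted p = 0.803). ALPI, the intestinal alkaline phosphatase, averaged 314 ± 22.6 FPKM in VD3VPA, 218 ± 12.3 FPKM in VD3, 12.98 ± 2.31 FPKM in VPA and 9.87 ± 0.346 FPKM in Control, an interaction of 0.17 (95% interval −0.13 to 0.47, limma adjusted p = 0.341). Among genes with opposite single effects, QSOX1, which forms disulfide bonds, averaged 48.4 ± 1.26 FPKM in VD3VPA, 83.1 ± 1.08 FPKM in VD3, 12.3 ± 1.06 FPKM in VPA and 20.8 ± 2.88 FPKM in Control, an interaction of −0.06 (95% interval −0.31 to 0.20, limma adjusted p = 0.707). EPAS1, a hypoxia-inducible transcription factor, averaged 20.5 ± 0.118 FPKM in VD3VPA, 37.1 ± 1.75 FPKM in VD3, 9.08 ± 1.18 FPKM in VPA and 16.9 ± 2.76 FPKM in Control, an interaction of −0.01. EMB and RASEF had interactions of 0.10 and 0.26. The interaction became called for RASEF (0.39) and SLC22A31 (−0.31) without Control replicate 1, and for KNG1 (−0.39) without VPA replicate 3. UGT1A1, a bilirubin-conjugating enzyme, had −0.19, but its exons are shared with other genes of its locus, so its level is uncertain.

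CYP24A1, S100G and TRPV6, textbook targets of the vitamin D receptor, showed no called interaction in the reported setting. CYP24A1, which breaks down the vitamin D hormone, had 1335, 1504 and 1442 FPKM in VD3VPA, 857, 918 and 1008 FPKM in VD3, 1.17, 1.36 and 0.150 FPKM in VPA and 0, 0 and 0.00590 FPKM in Control libraries. Its interaction was −0.23 (95% interval −0.86 to 0.40, limma adjusted p = 0.554), an interval that reaches beyond 1.5-fold, and without VPA replicate 3 it was −0.55 and called (limma adjusted p = 0.00153). Control is near 0 here, so the value depends on the added 1 FPKM and was −2.30 and called with 0.1 FPKM in its place (adjusted p = 0.0201). CYP24A1 was also called negative with voom (−6.43, adjusted p = 0.0124) and called positive with a pseudocount of 5 (0.39, adjusted p = 0.0170). The calcium-binding gene S100G had 2295, 1879.6 and 2032 FPKM in VD3VPA, 1424, 1448 and 1734 FPKM in VD3, 14.1, 1.00 and 0.809 FPKM in VPA and 0.587, 0.186 and 0.412 FPKM in Control libraries, an interaction of −1.02 (95% interval −2.89 to 0.85, limma adjusted p = 0.357). The calcium channel gene TRPV6 had 45.9, 46.1 and 45.9 FPKM in VD3VPA, 33.5, 33.3 and 33.0 FPKM in VD3, 0.537, 0.159 and 0.0736 FPKM in VPA and 0.0348, 0.0425 and 0.0354 FPKM in Control libraries, an interaction of 0.20 (95% interval −0.11 to 0.50, limma adjusted p = 0.279). VPA replicate 1 stood above the other VPA libraries in S100G and TRPV6, and without it the interaction of S100G was −0.03, that of TRPV6 0.35 (adjusted p = 0.000894), that of ALPI 0.30 (adjusted p = 0.0229) and that of VDR 0.46 (adjusted p = 0.00141). VDR, the receptor itself, averaged 3.43 ± 0.0869 FPKM in VD3VPA, 2.87 ± 0.0607 FPKM in VD3, 2.97 ± 0.808 FPKM in VPA and 3.21 ± 0.218 FPKM in Control (SD, n = 3 each), an interaction of 0.30 (95% interval −0.03 to 0.63, limma adjusted p = 0.134). CYP3A5, a relative of CYP3A4, was saturated by a small margin with 116 ± 2.02 FPKM in VD3VPA, 86.4 ± 4.70 FPKM in VD3, 11.7 ± 1.38 FPKM in VPA and 6.60 ± 0.178 FPKM in Control, an interaction of −0.32 (SE 0.0950, limma adjusted p = 0.0183) that was not called with equal FPKM sums (adjusted p = 0.0533) or after quantile normalization (adjusted p = 0.0771). MYC, a growth-promoting transcription factor, averaged 0.769 ± 0.279 FPKM in VD3VPA, 1.80 ± 0.638 FPKM in VD3, 5.69 ± 0.895 FPKM in VPA and 11.6 ± 1.24 FPKM in Control, an interaction of 0.27 (95% interval −0.25 to 0.78, limma adjusted p = 0.389). With a pseudocount of 5 the interactions of MYC (0.40, adjusted p = 0.0134), LCT (0.26, adjusted p = 0.0390), TRPV6 (0.35, adjusted p = 0.000101) and UGT1A1 (−0.41, adjusted p = 0.0231) were called. With voom TRPV6 was instead called negative (−1.78, adjusted p = 0.0403).

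Gene lists were written with earlier results of these data known, and were compared with all tested genes by counts and medians alone. Among absorptive genes the interaction was mostly negative. Of 34 intestinal transporters 21 were called negative and 3 positive, with a median of −0.56, where 25.3% of all tested genes were negative and 19.0% positive. Their median VPA effect was 0.12 with VD3 present and 0.48 alone. The amino acid carrier SLC7A9 averaged 5.63 ± 0.305 FPKM in VD3VPA, 10.5 ± 1.11 FPKM in VD3, 33.7 ± 0.339 FPKM in VPA and 24.9 ± 1.68 FPKM in Control (SD, n = 3 each) and SLC1A1, a glutamate carrier, averaged 96.7 ± 1.14 FPKM in VD3VPA, 86.6 ± 3.79 FPKM in VD3, 95.9 ± 6.12 FPKM in VPA and 49.5 ± 0.788 FPKM in Control. Of 25 genes of lipid absorption and lipoproteins 15 were negative and 3 positive, with a median of −0.51, APOB, CREB3L3 and PLIN2 among them. Of 28 brush border genes 15 were negative and 2 positive, with a median of −0.27 that was −0.15 after quantile normalization. The peptidase DPP4 averaged 102 ± 3.43 FPKM in VD3VPA, 241 ± 24.7 FPKM in VD3, 148 ± 5.23 FPKM in VPA and 127 ± 11.9 FPKM in Control, with an interaction of −1.45, and the aminopeptidase ENPEP had −1.85.

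Junction genes formed the list with the most cancelled members, 12 of 29, where 11.6% of all tested genes were cancelled. Of these 29 genes 20 were negative and 1 positive, with a median of −0.32 that was −0.19 after quantile normalization. DSP, which anchors keratin at desmosomes, averaged 28.8 ± 1.63 FPKM in VD3VPA, 43.9 ± 2.32 FPKM in VD3, 40.9 ± 2.70 FPKM in VPA and 32.9 ± 4.85 FPKM in Control (SD, n = 3 each), an interaction of −0.90. JUP, a desmosome and adherens junction protein, averaged 112 ± 3.09 FPKM in VD3VPA, 175 ± 5.80 FPKM in VD3, 133 ± 6.46 FPKM in VPA and 130.1 ± 14.6 FPKM in Control, an interaction of −0.67, and the tight junction gene F11R had −0.59. In DSP, JUP and F11R the VD3 libraries had the highest mean, and VD3 raised each gene alone. The median VD3 effect of the list was −0.13 with VPA present and 0.24 alone.

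The list of genes responsive to histone deacetylase inhibitors was written with earlier results of these data known, so it is no independent test. Its median interaction was −0.53, with 15 of 24 negative and 2 positive. ENC1, an actin-binding protein, averaged 12.4 ± 1.09 FPKM in VD3VPA, 19.4 ± 1.93 FPKM in VD3, 135 ± 7.58 FPKM in VPA and 55.2 ± 5.87 FPKM in Control (SD, n = 3 each), an interaction of −1.88, and SERPINI1, a protease inhibitor, averaged 5.87 ± 0.329 FPKM in VD3VPA, 5.20 ± 0.615 FPKM in VD3, 24.6 ± 1.59 FPKM in VPA and 7.75 ± 0.752 FPKM in Control, an interaction of −1.40. The list's median VPA effect was −0.09 with VD3 present and 0.28 alone. The deacetylase and acetyltransferase genes themselves had a median of 0.02, with 4 of 27 positive and 5 negative, KAT2A at 1.27 being the clearest. Of 19 genes of the BMP, TGF beta and Notch response 12 were negative and 1 positive, with a median of −0.40 (−0.63 with voom), and the signal protein BMP2 averaged 72.8 ± 0.399 FPKM in VD3VPA, 97.4 ± 8.50 FPKM in VD3, 112 ± 9.41 FPKM in VPA and 66.2 ± 2.95 FPKM in Control. Interferon response and antigen presentation genes had a median of −0.39, with 10 of 17 negative and 1 positive. HLA-E, an MHC class I gene, averaged 121 ± 4.65 FPKM in VD3VPA, 131 ± 8.63 FPKM in VD3, 219 ± 6.16 FPKM in VPA and 102 ± 4.32 FPKM in Control, and B2M, the light chain of MHC class I, averaged 70.0 ± 3.36 FPKM in VD3VPA, 99.6 ± 10.5 FPKM in VD3, 123 ± 7.45 FPKM in VPA and 92.3 ± 1.14 FPKM in Control.

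Growth genes went the other way. Of 16 proliferation genes 12 were positive and none negative, with a median of 0.69 (1.07 with voom), and 9 were saturated, against 7.79% of all tested genes. MCM7, another subunit of the replication helicase, averaged 3.14 ± 0.181 FPKM in VD3VPA, 2.76 ± 0.109 FPKM in VD3, 2.19 ± 0.125 FPKM in VPA and 5.73 ± 0.479 FPKM in Control (SD, n = 3 each), an interaction of 1.21. RRM2, which makes DNA building blocks, averaged 0.495 ± 0.0498 FPKM in VD3VPA, 0.144 ± 0.0549 FPKM in VD3, 0.296 ± 0.148 FPKM in VPA and 1.82 ± 0.380 FPKM in Control, so it passed the filter through Control alone. The floor at 0 FPKM makes its interaction (1.503) positive but does not fix its size. Of the 16 proliferation genes 5 reached a mean of 1 FPKM in Control only. In 3 the single effects added on the log2(FPKM + 1) scale would give a level below 0 FPKM. Of 27 genes of MYC, ribosome biogenesis and polyamines 20 were positive and 1 negative, with a median of 0.60, and 18 were saturated. GNL3, a nucleolar protein, averaged 18.5 ± 1.11 FPKM in VD3VPA, 17.2 ± 1.70 FPKM in VD3, 13.8 ± 0.439 FPKM in VPA and 27.7 ± 3.23 FPKM in Control, and DKC1, which modifies ribosomal RNA, averaged 5.17 ± 0.0797 FPKM in VD3VPA, 4.96 ± 0.355 FPKM in VD3, 6.23 ± 0.268 FPKM in VPA and 11.3 ± 1.10 FPKM in Control. Of 13 mitochondrially encoded genes 11 were positive and none negative, with a median of 0.60. MT-ND3, a subunit of complex I, averaged 2922 ± 55.6 FPKM in VD3VPA, 2853 ± 209 FPKM in VD3, 2691 ± 206 FPKM in VPA and 5162 ± 268 FPKM in Control, while nuclear respiratory chain genes had 3 positive and 2 negative of 29, with a median of −0.03 that turned positive under other scalings. Control had the highest mean of MCM7, RRM2, GNL3, DKC1 and MT-ND3. The median VPA effect was 0.12 with VD3 present and −0.56 alone for proliferation, 0.03 and −0.56 for MYC and ribosome biogenesis, and 0.13 and −0.47 for mitochondrially encoded genes.

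Vitamin D receptor targets had a median interaction of 0.16, which was 0.07 with voom and 0.27 with a pseudocount of 0.1. A total of 8 were positive and 3 negative of 24, a called share of 45.8% beside 44.3% of all tested genes. Of the 24, 5 met the synergistic pattern, 2 of them CYP3A4, which had no stable sign, and CLDN2, whose call was lost in 9 of 12 fits with a library left out. Their median VPA effect was 0.28 with VD3 present and 0.08 alone. SULT2A1, which sulfates bile acids and steroids, was an exception with 50.3 ± 2.04 FPKM in VD3VPA, 27.6 ± 2.004 FPKM in VD3, 196 ± 30.2 FPKM in VPA and 37.6 ± 8.62 FPKM in Control (SD, n = 3 each), an interaction of −1.52. Hepatocyte genes had 11 positive and 3 negative of 25, with a median of 0.07 that was 0.40 with voom and 0.27 after quantile normalization. Their median VPA effect was −0.01 with VD3 present and −0.55 alone. Phase I drug metabolism genes had 5 positive and 7 negative of 22, with a median of −0.01, and phase II genes had 10 positive and 7 negative of 26, with a median of 0.06. Nuclear receptors had 4 positive and 7 negative of 27, with a median of −0.04, and the signs of the phase I and nuclear receptor medians changed with the scaling. Chaperone genes had 3 positive and 7 negative of 23, and stress response genes 9 and 6 of 25, with medians of 0.05 and 0.03 whose signs changed when 1 library was left out (−0.04 to 0.07 and −0.02 to 0.09), as did those of phase II genes (−0.01 to 0.13) and of the deacetylase and acetyltransferase genes (−0.02 to 0.05). The stress factor ATF3 was cancelled, with 11.9 ± 0.0252 FPKM in VD3VPA, 19.8 ± 1.48 FPKM in VD3, 20.6 ± 2.51 FPKM in VPA and 12.7 ± 2.47 FPKM in Control. Of 25 glycolysis and gluconeogenesis genes 10 were positive and 10 negative, with a median of −0.23 (−0.13 after quantile normalization). Of 28 genes of fatty acid oxidation 3 were positive and 10 negative, with a median of −0.13 (−0.03 after quantile normalization). Wnt and crypt genes (3 positive and 5 negative of 13), cholesterol genes (2 and 8 of 25), p53 targets (2 and 9 of 23) and metal carriers (3 and 6 of 22) had medians of −0.15, −0.21, −0.22 and −0.13. Quantile normalization left −0.06 for cholesterol genes, −0.07 for p53 targets and −0.03 for metal carriers, and voom gave −0.37 for Wnt and crypt genes.

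Markers of some other cell types also had called interactions. Mesenchymal and contractile genes had 1 positive and 8 negative of 17, with a median of −0.44. Their called share was 52.9%, not far from the 44.3% of all tested genes. Of 2 tested neural genes and 1 tested endothelial and blood gene, 0 were called. VIM, an intermediate filament of mesenchyme, averaged 3.19 ± 0.218 FPKM in VD3VPA, 3.09 ± 0.569 FPKM in VD3, 10.2 ± 0.136 FPKM in VPA and 2.97 ± 0.382 FPKM in Control (SD, n = 3 each). Its rise with VPA alone is not typical of the list, whose median VPA effect was −0.35 with VD3 present and −0.08 alone. The list's median VD3 effect was 0.33 with VPA present and 0.43 alone. The marker COL1A1 averaged 12.2 FPKM in VD3VPA, 10.2 FPKM in VD3, 7.67 FPKM in VPA and 6.56 FPKM in Control. Summed mesenchyme markers reached 16.6 to 36.1 FPKM in VD3VPA, 14.3 to 15.3 FPKM in VD3, 18.8 to 22.3 FPKM in VPA and 10.8 to 13.9 FPKM in Control, and 3 of 6 reached 1 FPKM. The highest sum comes from 1 library, VD3VPA replicate 3, in which COL3A1 lay at 17.2 FPKM, against 0.444 and 2.18 FPKM in the other VD3VPA libraries and 0.0776 to 4.10 FPKM in the other groups. The gastric peptide TFF1 averaged 17.6 ± 1.502 FPKM in VD3VPA, 37.4 ± 6.87 FPKM in VD3, 15.6 ± 2.26 FPKM in VPA and 85.5 ± 10.2 FPKM in Control, an interaction of 1.35. Of 6 secretory markers 3 were positive, AGR2 at 2.12 among them, and 2 negative, with a median of 0.55. MUC13, a membrane mucin on this list, averaged 85.2 ± 2.80 FPKM in VD3VPA, 139 ± 16.0 FPKM in VD3, 247 ± 17.7 FPKM in VPA and 142 ± 5.12 FPKM in Control, an interaction of −1.49. Their part in the patterns above was not tested.

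**Figure D4:**
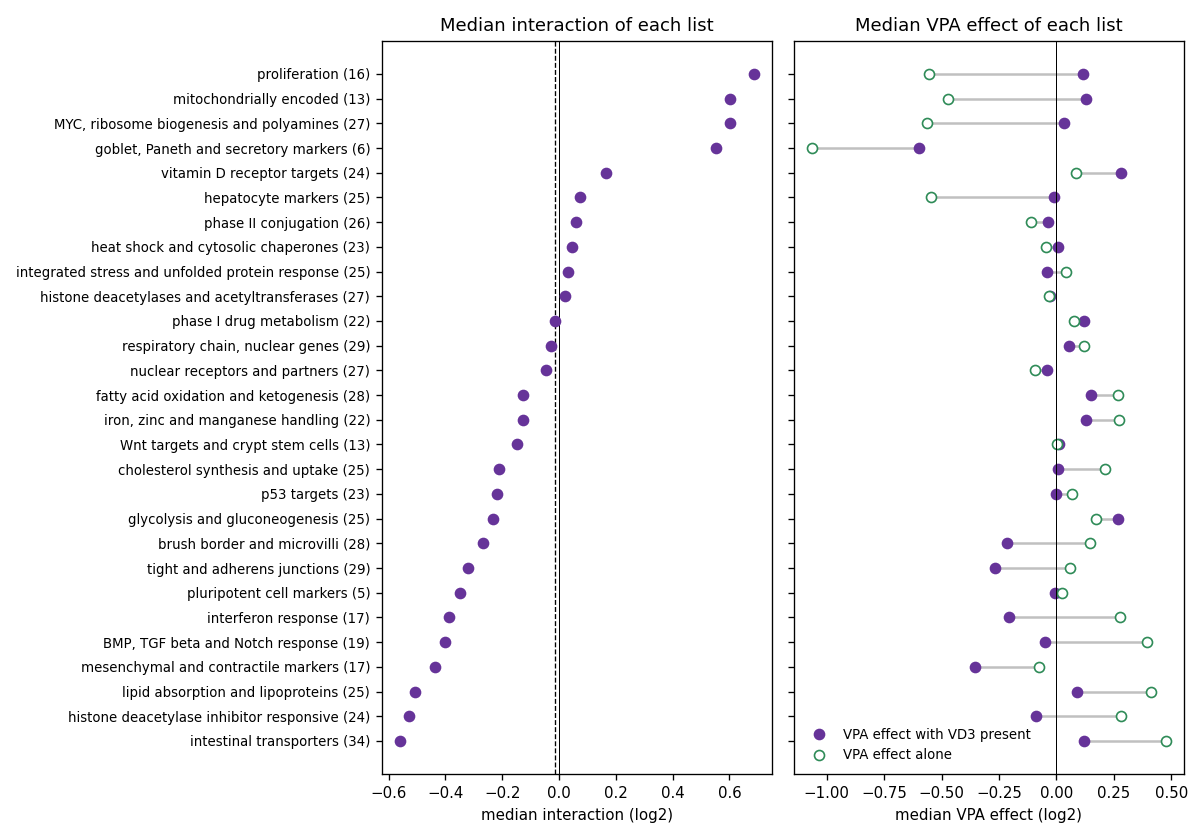
The left panel gives the median interaction (log2) of each gene list with at least 5 tested members (number in brackets), with the median of all tested genes as a dashed line; the right panel gives the list's median VPA effect with VD3 present (filled) and alone (open). Growth and mitochondrially encoded lists lie at 0.60 to 0.69, transporter, deacetylase inhibitor and lipid lists at −0.56 to −0.51, and most filled points lie nearer 0 than the open ones.

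The log2 scale takes the product of the single effects as the expectation. Against the sum of the single differences in FPKM, the combination lay on the same side as the log2 interaction in 902 of 920 saturated, 276 of 287 opposed, 1393 of 1393 cancelled and 257 of 258 synergistic genes. Genes with a very low mean in any group were left out, so 258 of the 350 synergistic genes were compared. For cancelled genes this largely follows from the definition. It also follows for saturated falls, for opposed genes with a negative interaction and for synergistic genes that both compounds raised alone. In most synergistic genes only 1 compound acted alone, which brings product and sum close together. For all these genes the counts say little about the choice of scale. For additive genes the choice matters: AQP1 averaged 68.9 ± 2.12 FPKM in VD3VPA, against 100.0 FPKM as the product and 27.9 FPKM as the sum. The spans of C3, ENC1, ODC1, ADI1, APOA4, DPP4, HK2, MCM7, GNL3, S100G, VDR and CLDN2 overlap other expressed genes, and the strand setting of the counting is not given in the sources used here, so their levels are uncertain to that extent.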

How the data were processed

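Sequencing libraries (12, 3 per group) were made from poly-A RNA with a NEBNext Ultra kit, starting from 1 µg each, per the labels' protocols. Build GRCh38.p13 and the tools DESeq2 1.20.0, featureCounts 1.5.0-p3 and HISAT2 2.0.5 are listed in the submitters' processing notes, without their roles. The deposited values are FPKM per gene and library, per the file headers. Multiplied by gene length and a constant per library, 100% gave whole fragments within 0.01, and the authors' scaling equals median-of-ratios size factors of these.

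From these values log2(FPKM + 1) was fitted with a mean per group in limma 3.58.1 (R 4.3.3, trended prior, 8 residual and 3.28 prior degrees of freedom). Genes needed at least 1 FPKM in 3 libraries, and 17 Y-linked genes, XIST and TSIX were left out. Benjamini-Hochberg adjustment was done separately for each comparison. The median SE was 0.0931 for the interaction and 0.0658 for a pair of groups. Intervals come from the same fit. The added 1 FPKM understates changes of low genes.

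Named genes were the 5 largest interactions of each pattern, the 4 clearest additive genes of each kind, the 5 largest of each sign, up to 3 per list and a fixed set, all protein-coding; pattern, additive and overall choices also needed a group mean of 5 FPKM. Some genes that the rule names are not reported here. The members, lists and tests were chosen with earlier results of these data known. Overlaps with other genes were read from gene spans. Promoter windows were matched by symbol for 8723 tested genes (69.4%), so no share by pattern is given. The fit was tested on simulated data. Tables and figures used Python 3.11.15, pandas 2.3.3, numpy 2.4.6 and matplotlib 3.10.9.

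Alternatives were other pseudocounts, filters, scalings, priors, weights, thresholds and size floors, protein-coding genes only, a replicate block, voom on recovered fragments, and each library left out in turn. List medians under quantile normalization, voom and a pseudocount of 0.1 were added after seeing the data.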

Additional observations from a re-analysis of the deposited data

Results flagged for a closer look

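Across all 12561 tested genes, called VD3 effects of at least 0.32 (log2) had opposite directions without and with VPA in 185. Called VPA effects did so without and with VD3 in 254. Most named genes were chosen for a large interaction or a small interaction p, so their share is not that of all genes. Of the 84 named genes reported, 26 had such opposite effects of VD3, VPA or both, and the interaction is the difference. With VD3 present VPA lowered 15 of them, and alone it raised them: SLC43A2 (interaction −2.53), C3 (−2.27), RETREG1 (−2.04), LGMN (−2.01), ENC1 (−1.88), CTSL (−1.86), ADI1 (−1.85), SLC26A3 (−1.82), DUSP6 (−1.77), ABCG2 (−1.75), MUC13 (−1.49), ATF3 (−1.35), SLC7A9 (−1.22), BMP2 (−1.15) and B2M (−0.90). VPA raised SLC6A11 (2.30) and RRM2 (1.503) with VD3 present and lowered them alone, and RRM2 lay under 0.5 FPKM in the treated groups.

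With VPA present VD3 lowered 10 genes that it raised alone: ALPL (−2.65), HSD3B1 (−2.55), C3 (−2.27), ENPEP (−1.85), ABCG2 (−1.75), DPP4 (−1.45), ATF3 (−1.35), HLA-E (−1.21), BMP2 (−1.15) and DSP (−0.90). VD3 raised SLC6A11 (2.30), AGR2 (2.12), MCM7 (1.21) and GNL3 (1.05) with VPA present and lowered them alone. C3, ABCG2, ATF3, BMP2 and SLC6A11 turned with both compounds.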

How the results depend on the processing

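Leaving out each library in turn gave 2081 to 2433 positive and 2797 to 3142 negative interactions, 855 to 1139 saturated, 1322 to 1463 cancelled, 122 to 157 reversed, 457 to 552 blunted, 310 to 353 opposed, 296 to 345 synergistic, 340 to 398 combination-only, 203 to 225 additive same-direction and 90 to 122 additive opposite-direction genes. Genes called under both the reported and any other setting kept their sign in every setting run, and those settings called 3647 to 5720 genes. The unadjusted p was under 0.05 in 6486 genes, and voom on recovered fragments called 5647. Pattern counts depended more on the settings. With a pseudocount of 5 there were 463 saturated, 948 cancelled, 65 reversed, 136 opposed, 231 synergistic, 76 additive same-direction and 38 additive opposite-direction genes. Requiring at least 5 FPKM in 3 libraries left 1299 positive interactions and 904 cancelled, 211 synergistic, 242 combination-only and 71 additive opposite-direction genes. An adjusted p under 0.01 gave 1443 positive interactions, 296 blunted and 207 synergistic genes. With no size floor there were 1862 saturated, 388 reversed, 798 opposed, 864 additive same-direction and 535 additive opposite-direction genes, and with a floor of 1.5-fold 316 saturated, 876 cancelled, 40 reversed, 99 opposed, 39 additive same-direction and 15 additive opposite-direction genes. The sign turned with a pseudocount of 5 for CYP24A1 (0.39), RARRES2 (0.34) and AQP1 (0.47), and with voom for CYP3A4 (−0.87) and TRPV6 (−1.78). CYP24A1, CYP3A4 and TRPV6 are near 0 in Control, and the fold change is not fixed by the data there. AQP1 and RARRES2 are low in Control but counted, with 867 and 231 fragments over the Control libraries. Their sign changed with the pseudocount, and voom called both negative. The causes of the other changes were not tested.

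A replicate block called 5447 interactions, 2331 positive and 3116 negative, of which 5283 were also called without it. Deviations of libraries with the same number correlated at −0.08 to 0.15 (median 0.02) and those with different numbers at −0.19 to 0.11 (median −0.02). Of 12 libraries 5 correlated best with their own number. No clear pairing by number was seen, but so few libraries cannot exclude a weak one. With the block KNG1 became called (adjusted p = 0.0286) and BOLA2B was not (adjusted p = 0.0720).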
